A study of Saccharomyces cerevisiae with 4 samples.

Results

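The genes described here make and break down the storage carbohydrates of budding yeast, Saccharomyces cerevisiae. They are the 10 genes TPS1, TPS2, TPS3, TSL1, NTH1, NTH2, ATH1, GSY1, GSY2 and GPH1, chosen by name. Each had 1 probe set that the platform annotation assigns to no other gene, and all 10 passed the filter on dim probe sets. On these arrays 5656 genes had such a probe set. Transcripts were measured on 4 one-colour Affymetrix arrays, 2 labelled hst3hst4, from strain YCB600, and 2 labelled wild-type, from strain YCB617. Both strains are of the FY background and were grown in the rich medium YPD. Each array carried RNA of its own culture, and the design sets every mutant culture against every wild-type culture. Each genotype is represented by 1 strain. HST3 and HST4, the genes named in the mutant label, encode sirtuins, which are NAD-dependent deacetylases that act on lysine 56 of histone H3.

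Trehalose is a disaccharide and glycogen a branched polymer, both built from glucose by way of UDP-glucose. Yeast lays them down as glucose runs low, on entry to stationary phase and under stress, and consumes them when growth resumes. In yeast, many genes of both pathways carry stress response elements, bound by Msn2 and Msn4, and are held down by protein kinase A while glucose is plentiful. Synthesis and breakdown enzymes are often induced together. Enzyme activity is set further by phosphorylation, so a transcript level does not give the flux.

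The arrays had been scaled to a common trimmed mean, and the median signals were 37.5 and 41.2 for the hst3hst4 label and 37.9 and 38.3 for the wild-type label. The deleted genes gave a mixed check of the labels. HST3 signals under the hst3hst4 label were 0.4 and 0.5, against 13.7 and 25.3 under the wild-type label. The HST3 probe set was left out by the filter on dim probe sets, so its fall was not tested. HST4 went against the label, with 38.0 and 39.3 under the hst3hst4 label and 3.6 and 0.9 under the wild-type label. It was called higher (log2 fold change 2.96, limma adjusted p = 0.0104). Its probes may lie outside the deletion, and would then not check it, but their positions were not used here. The cause of the HST4 rise was not tested. Strains are therefore called by the labels of their arrays, and every rise or fall below rests on those labels. The 3'/5' signal ratio of the TATA-binding protein gene, a measure of RNA integrity, was 3.82 and 3.70 on the hst3hst4 arrays against 4.64 and 5.20 on the wild-type arrays. For ACT1, the actin gene, this ratio was 1.73 and 1.78 in hst3hst4 and 1.70 and 1.88 in wild-type, with overlap. The part of RNA integrity in the results was not tested. An added alternative scaled the arrays on 9 hybridisation control probe sets, which had a mean log2 difference of -0.36, hst3hst4 minus wild-type. It moved the median change over all probe sets tested to 0.34, and the values below are on the authors' scaling unless stated. The summed signal of 5 a-specific mating genes was 3554.6 and 3748.5 on the hst3hst4 arrays against 4411.9 and 4276.0 on the wild-type arrays. In 4 of the 5 both hst3hst4 arrays were below both wild-type arrays, which held for 27.2% of all probe sets tested. Of the 5, 1, STE6, was called lower, where 0.539% of all probe sets were. The sum of 4 alpha-specific genes was 156.7 and 178.4 on the hst3hst4 arrays against 85.8 and 134.3 on the wild-type arrays. Of these 4, 3 were higher and the other 1 lower on both hst3hst4 arrays than on both wild-type arrays. Such a rise held for 25.4% and such a fall for 27.2% of all probe sets tested. No alpha-specific gene passed in limma. None of these markers was at 0 on any array, and their part in the results was not tested.

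Of the 10 genes, NTH1 rose, which encodes a trehalase, an enzyme that splits trehalose into glucose. The other trehalase genes, NTH2 and ATH1, did not pass. All 3 had higher signals on both hst3hst4 arrays than on both wild-type arrays, which held for 25.4% of all probe sets tested. No gene of trehalose synthesis and no glycogen synthase gene passed the test. For most of those genes the gap between the 2 wild-type cultures was larger than the strain difference, with the hst3hst4 cultures in between. In RNA from whole cultures, a change in transcripts per cell and a change in the share of cells that express a gene cannot be told apart.

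NTH1 (YDR001C, chromosome IV, 450220 to 452475 in the R64 assembly) encodes the main neutral trehalase of the cytosol. Its signals were 286.7 and 320.9 on the hst3hst4 arrays, against 157.7 and 120.1 on the wild-type arrays. The groups did not overlap, and the lower hst3hst4 culture lay well above the higher wild-type culture. The mean signal was 303.8 ± 24.2 on the hst3hst4 arrays and 138.9 ± 26.6 on the wild-type arrays (SD, n = 2 each). This is a 2.18-fold difference, or 1.12 on the log2 scale (SE 0.19, adjusted p = 0.0260 in limma). All fold changes are taken on log2(signal + 3.3). Each of the 4 array pairs showed a rise, of between 0.85 and 1.39 on the log2 scale. The call was lost without hst3hst4 replicate 1 (log2 fold change 1.20, adjusted p = 0.232) and without hst3hst4 replicate 2 (1.04, adjusted p = 0.265), fits in which 0.121% and 0.108% of all probe sets passed. At the same fold change it was also lost with no filter on dim probe sets (adjusted p = 0.0800) and without the mean-variance trend (adjusted p = 0.103), fits that called 0.388% and 0.512% of all probe sets.

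**Figure D1:**
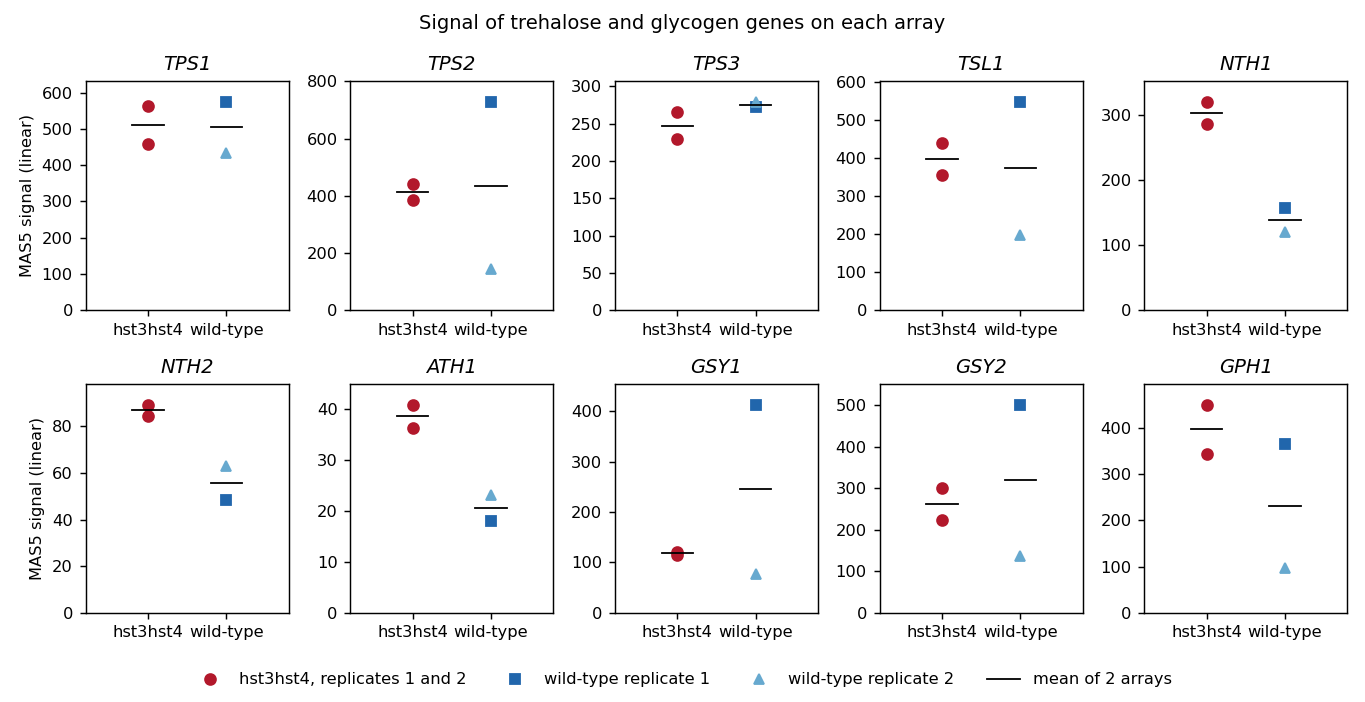
Signal of each of the 10 genes on each array, on linear axes that start at 0, with the arrays labelled hst3hst4 on the left (circles) and the arrays labelled wild-type on the right (square, replicate 1; triangle, replicate 2); lines are means of 2 arrays. NTH1, NTH2 and ATH1 are higher on both hst3hst4 arrays, whereas the 2 wild-type cultures stand far apart for TPS2, TSL1, GSY1, GSY2 and GPH1.

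NTH2 (YBR001C, chromosome II, 238941 to 241283) encodes a second neutral trehalase, a paralog of Nth1. Its signals were 84.5 and 89.4 on the hst3hst4 arrays, against 48.3 and 63.0 on the wild-type arrays. The groups did not overlap, but the log2 fold change of 0.63 (SE 0.20, 95% interval 0.16 to 1.09) missed the threshold (limma adjusted p = 0.149). ATH1 (YPR026W, chromosome XVI, 615379 to 619014) encodes the acid trehalase, which acts on trehalose outside the cell and in the vacuole. Its signals were 36.2 and 40.9 on the hst3hst4 arrays against 18.0 and 23.2 on the wild-type arrays. Both hst3hst4 cultures were again above both wild-type cultures, with a log2 fold change of 0.81 (SE 0.24, 95% interval 0.26 to 1.37, limma adjusted p = 0.127). After scaling on hybridisation controls, NTH2 (0.98, adjusted p = 0.00863), ATH1 (1.17, adjusted p = 0.00902), TPS2 (0.70, adjusted p = 0.0248) and GPH1 (1.41, adjusted p = 6.6e-07) passed beside NTH1, in a limma fit that called 16% of all probe sets and gave no weight to each gene's own spread. Wild-type replicate 1 was the lower of the wild-type arrays for NTH2 and ATH1 and the higher one for NTH1.

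TPS1 and TPS2 encode the catalytic subunits of the trehalose synthase complex. TPS1 (YBR126C, chromosome II, 488905 to 490392) makes trehalose-6-phosphate from UDP-glucose and glucose-6-phosphate. It had signals of 459.1 and 562.6 on the hst3hst4 arrays, against 574.2 and 434.1 on the wild-type arrays. The hst3hst4 cultures lay between the wild-type cultures, and the log2 fold change was 0.03 (SE 0.19, 95% interval -0.41 to 0.46, limma adjusted p = 0.956). After quantile normalization it was -0.023 and after median centring -0.016. TPS2 (YDR074W, chromosome IV, 593893 to 596583) encodes the phosphatase that completes trehalose. Its signals were 383.5 and 439.5 on the hst3hst4 arrays, against 728.3 and 142.2 on the wild-type arrays. The hst3hst4 cultures were close together and fell inside a 5.03-fold gap between the wild-type cultures. The strain difference of TPS2 was 0.34 on the log2 scale (SE 0.61, 95% interval -1.07 to 1.76, limma adjusted p = 0.794).

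TPS3 and TSL1 encode the regulatory subunits of the complex, which are paralogs of each other. TSL1 (YML100W, chromosome XIII, 70624 to 73920) followed the pattern of TPS2, with 356.6 and 439.0 on the hst3hst4 arrays against 547.9 and 198.7 on the wild-type arrays. Its log2 fold change was 0.26 (SE 0.40, 95% interval -0.68 to 1.19, limma adjusted p = 0.761). TPS3 (YMR261C, chromosome XIII, 790205 to 793369) had 229.2 and 265.5 on the hst3hst4 arrays against 272.2 and 279.3 on the wild-type arrays. Both wild-type cultures were slightly above both hst3hst4 cultures, and they agreed more closely for TPS3 than for the other 9 genes. The TPS3 log2 fold change of -0.16 did not pass (SE 0.16, 95% interval -0.53 to 0.21, limma adjusted p = 0.621), and it was 0.20 after scaling on hybridisation controls.

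GSY1 (YFR015C, chromosome VI, 174265 to 176391) and GSY2 (YLR258W, chromosome XII, 660716 to 662833) encode the glycogen synthases, of which Gsy2 is the major form. GSY1 had signals of 114.9 and 121.5 on the hst3hst4 arrays, against 413.8 and 78.0 on the wild-type arrays. The hst3hst4 cultures were nearly equal and lay far below wild-type replicate 1 but above wild-type replicate 2. The log2 fold change was -0.60 (SE 0.62, 95% interval -2.04 to 0.84, limma adjusted p = 0.631). GSY2 had 222.5 and 300.4 on the hst3hst4 arrays, against 501.9 and 136.4 on the wild-type arrays. Its log2 fold change was -0.02 (SE 0.51, 95% interval -1.19 to 1.15, limma adjusted p = 0.987), again with the hst3hst4 cultures between the wild-type ones.

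GPH1 (YPR160W, chromosome XVI, 861306 to 864014) encodes glycogen phosphorylase, which releases glucose-1-phosphate from glycogen. Its signals were 343.4 and 450.9 on the hst3hst4 arrays, against 365.4 and 95.9 on the wild-type arrays. The hst3hst4 cultures resembled wild-type replicate 1, and wild-type replicate 2 stood apart below the other 3 arrays. The log2 fold change of 1.05 was close to that of NTH1, but its SE was 0.51 and its 95% interval ran from -0.14 to 2.24 (limma adjusted p = 0.298).

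**Figure D2:**
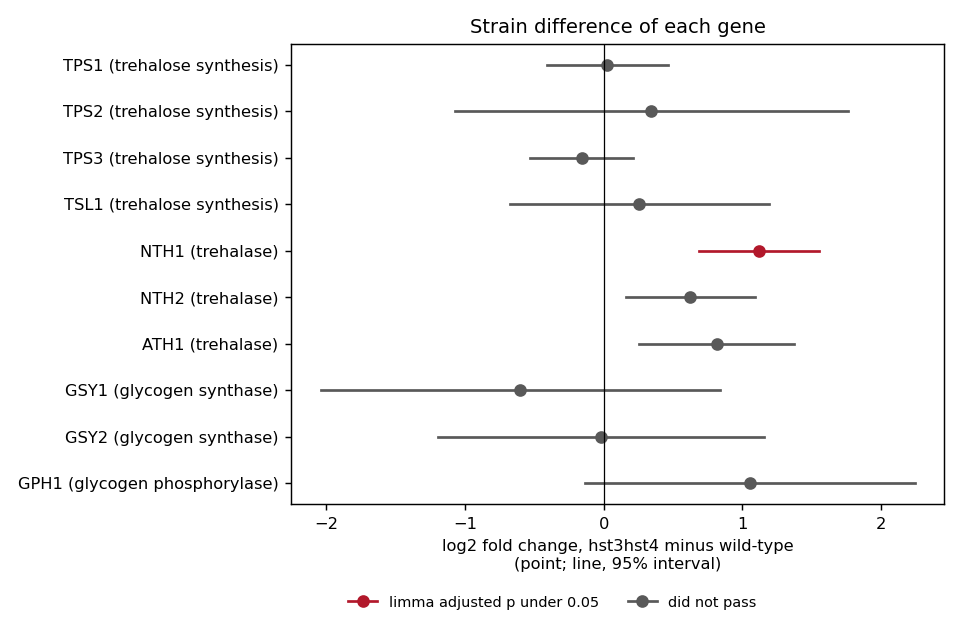
Log2 fold change of each gene, arrays labelled hst3hst4 minus arrays labelled wild-type (points), with the 95% interval of the limma fit (lines). NTH1 at 1.12 is the gene that passed an adjusted p of 0.05; the intervals of NTH2 and ATH1 lie above 0, and those of TPS2, GSY1, GSY2 and GPH1 are the widest.

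Counted over the 10 genes, 1 was called higher, NTH1, where 2.1% of the 7420 probe sets tested were called higher. None was called lower, where 0.539% of all probe sets were, and 3 of the 10, the trehalases, had an unadjusted limma p under 0.05, as did 20.2% of all probe sets. In 3 genes both hst3hst4 arrays were above both wild-type arrays, which held for 25.4% of all probe sets tested, and in 1 gene, TPS3, both were below, which held for 27.2%. Non-overlap of 3 in 10 upward is thus near the share over all probe sets. The median log2 fold change was 0.30 over the 10 genes and -0.02 over all probe sets tested. Without wild-type replicate 1 the median over the 10 genes was 0.78, without wild-type replicate 2 it was -0.16, without hst3hst4 replicate 2 it was 0.18, and after scaling on hybridisation controls it was 0.66. By role, the median was 0.81 for the 3 trehalases and 0.14 for the 4 genes of trehalose synthesis, while both glycogen synthases were below 0, although GSY2 was at 0.34 after scaling on hybridisation controls. The members were chosen with earlier results of these data known, so these medians describe the genes and carry no test.

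The wild-type cultures differed widely for most of the synthesis genes. On the log2 scale, wild-type replicate 1 exceeded wild-type replicate 2 by 2.36 for GSY1, 2.33 for TPS2, 1.89 for GPH1, 1.85 for GSY2 and 1.45 for TSL1. Differences of at least these sizes, in either direction, occurred in 0.202%, 0.256%, 0.714%, 0.822% and 1.79% of all probe sets tested. For these 5 genes the difference was beyond the 95th percentile of all probe sets, which was 0.99. Of the 10 genes, 7 were higher on wild-type replicate 1 than on replicate 2, as were 45.9% of all probe sets tested. The hst3hst4 cultures differed by at most 0.43 for any of the 10 genes, and 0 of 10 were beyond the corresponding 95th percentile of 0.71. The median size of the replicate difference over the 10 genes was 0.20 between the hst3hst4 cultures and 0.92 between the wild-type cultures. Over all probe sets tested it was 0.20 between the hst3hst4 cultures and 0.24 between the wild-type cultures. Whether the difference between the wild-type cultures arose in growth or in handling was not tested.

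**Figure D3:**
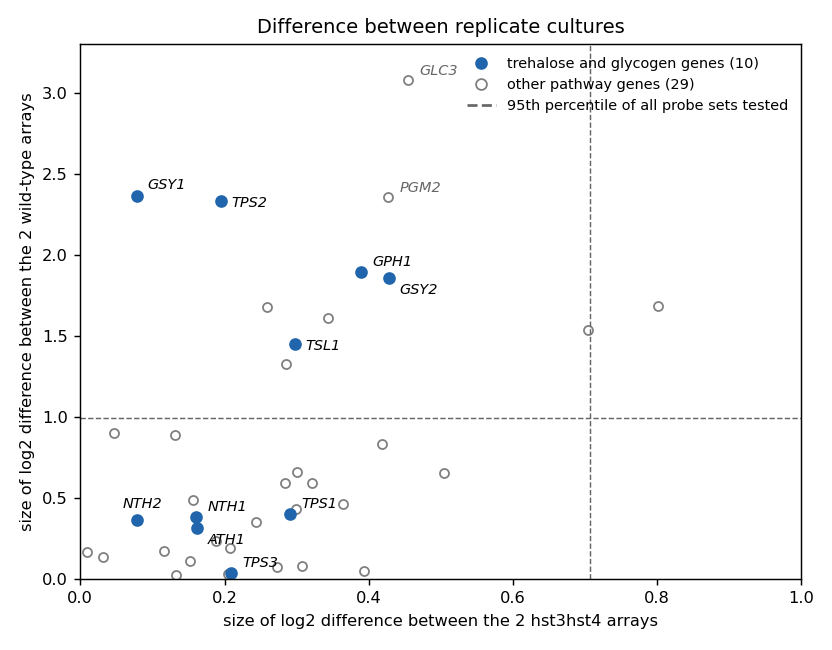
Size of the log2 difference between the 2 wild-type arrays (vertical) against that between the 2 hst3hst4 arrays (horizontal), for the 10 genes (filled) and the 29 other pathway genes (open); dashed lines are the 95th percentiles over all probe sets tested, 0.99 and 0.71. GSY1, TPS2, GPH1, GSY2 and TSL1 lie above the horizontal line, and the trehalases, TPS1 and TPS3 lie below it.

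Because of this spread, the strain difference of these genes depended on which wild-type culture was used. Against wild-type replicate 1 the mean log2 difference of the hst3hst4 cultures was -0.82 for TPS2, -0.47 for TSL1, -1.78 for GSY1 and -0.95 for GSY2. Against wild-type replicate 2 it was 1.51 for TPS2, 0.98 for TSL1, 0.58 for GSY1 and 0.91 for GSY2. The direction thus turned for each of these 4 genes, and also for TPS1, which was at -0.17 against replicate 1 and 0.23 against replicate 2. GPH1 was at 0.11 against replicate 1, with its array pairs on both sides of 0 (-0.089 and 0.30), and at 2.0001 against replicate 2. The trehalases moved less, with NTH1 at 0.93 and 1.31, NTH2 at 0.81 and 0.44 and ATH1 at 0.97 and 0.66 against replicates 1 and 2 in that order.

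Without wild-type replicate 1, 5 of the 10 genes were called higher, namely TPS2, TSL1, NTH1, GSY2 and GPH1, in a fit that called 7.84% of all probe sets higher. Without wild-type replicate 2, NTH1 was called higher, where 3.42% of all probe sets were, and TPS2, GSY1 and GSY2 were called lower, where 1.15% were. In these fits the remaining wild-type array has no replicate and is assumed to vary as the hst3hst4 arrays do. TPS2 and GSY2 therefore passed in opposite directions according to the culture left out. None of the 10 genes reached 2-fold one way in every array pair, a level that 1.5% of all probe sets reached upward and 0.148% downward. At 1.5-fold NTH1 alone did, among 3.95% of all probe sets upward.

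**Figure D4:**
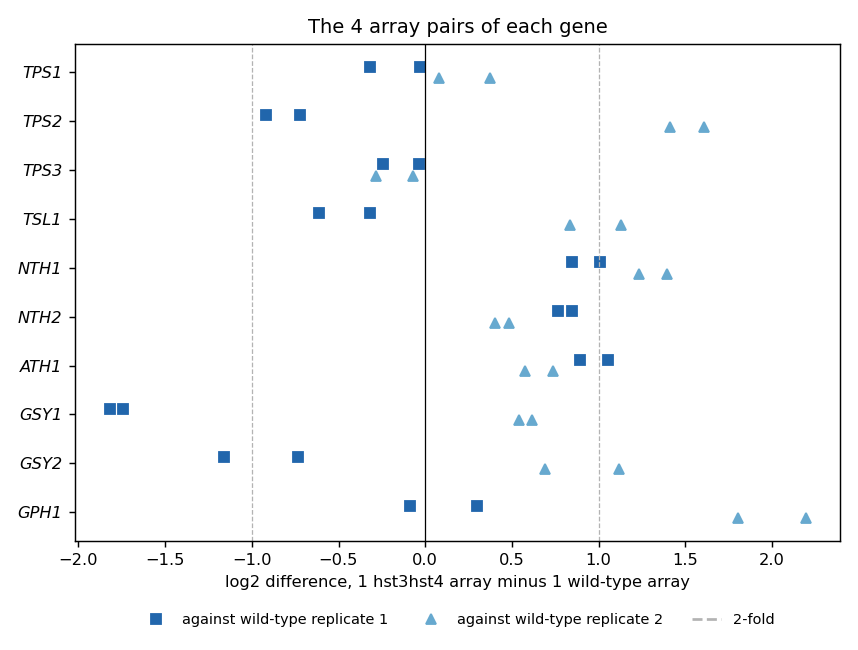
Log2 difference of each of the 4 array pairs, 1 array labelled hst3hst4 minus 1 array labelled wild-type, for each gene; squares are pairs with wild-type replicate 1, triangles pairs with wild-type replicate 2, and dashed lines mark 2-fold. All 4 pairs of NTH1, NTH2 and ATH1 lie above 0 and all 4 of TPS3 below it, while squares and triangles of TPS1, TPS2, TSL1, GSY1 and GSY2 fall on opposite sides.

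The paralog pairs were compared within each array, so that a difference common to an array drops out. The log2 fold change of NTH1 exceeded that of NTH2 by 0.50, and the difference was above 0 in 4 of 4 array pairs, from 0.082 to 0.91. GSY2 exceeded GSY1 by 0.58, also in 4 of 4 array pairs, from 0.15 to 1.01. Each gave an exact two-sided permutation p of 0.333, which is the smallest that this test can give with 2 arrays against 2, so it could not have passed. TSL1 exceeded TPS3 by 0.42, above 0 in 2 of 4 array pairs, with an exact two-sided permutation p of 1. Adjusted over the 3 pairs, the lowest exact permutation p was 0.5. The probe sequences were not used here, so cross-hybridisation between paralogs was not tested.

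The 29 other listed genes of these pathways all had a probe set of their own that passed the filter. Of these, 1 was called higher, 0 were called lower and 28 did not pass, and 8 had an unadjusted limma p under 0.05. Over all probe sets tested these shares were 2.1% higher, 0.539% lower and 20.2% with an unadjusted p under 0.05. Their median log2 fold change was 0.02. The gene that rose was SGA1 (YIL099W, chromosome IX, 178004 to 179653), a glucoamylase that degrades glycogen during sporulation. It had 139.6 and 128.5 on the hst3hst4 arrays, against 44.7 and 39.3 on the wild-type arrays. The groups were far apart, at 1.60 on the log2 scale (SE 0.18, adjusted p = 0.00769 in limma), and a second probe set gave 1.62 (adjusted p = 0.0494). The SGA1 call was lost without hst3hst4 replicate 1 (1.54, adjusted p = 0.168) and without hst3hst4 replicate 2 (1.66, adjusted p = 0.167).

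Glycogen is primed by Glg1 and Glg2, branched by Glc3 and debranched by Gdb1, which Igd1 inhibits. GDB1, the partner of the phosphorylase in breakdown, had 126.8 and 159.2 on the hst3hst4 arrays against 86.9 and 56.5 on the wild-type arrays. The groups did not overlap, but the log2 fold change of 0.99 (SE 0.24) missed the threshold (limma adjusted p = 0.0838). With the replicate number as a block it passed (limma adjusted p = 0.0489), in a fit that called 4.62% of all probe sets, against 2.64% without the block. GLC3, the branching enzyme, had 245.6 and 337.8 on the hst3hst4 arrays against 467.1 and 52.5 on the wild-type arrays. That gap between the wild-type cultures, 8.43-fold, was exceeded or equalled in 0.0404% of all probe sets tested. The log2 fold change of GLC3 was 0.85 with an SE of 0.80 (limma adjusted p = 0.595). GLG1 was at -0.38 (adjusted p = 0.646), GLG2 at 0.14 (0.819) and IGD1 at 0.36 (0.696), all limma values.

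Among the genes that supply glucose phosphates and UDP-glucose, 0 of 6 passed in limma and 1, HXK2, had an unadjusted p under 0.05. That level was reached by 20.2% of all probe sets. HXK2, the main hexokinase on glucose, had 965.6 and 1073.0 on the hst3hst4 arrays against 1548.2 and 1435.0 on the wild-type arrays. Its log2 fold change was -0.55 (SE 0.14, limma adjusted p = 0.0854), with no overlap between the groups. PGM2, the major phosphoglucomutase, had 401.8 and 298.0 on the hst3hst4 arrays against 635.4 and 121.5 on the wild-type arrays. PGM2 thus repeated the wild-type gap of TPS2 and GSY1 (log2 fold change 0.31, SE 0.63). The other members were at -0.28 for PGM1, its paralog, -0.02 for UGP1, the UDP-glucose pyrophosphorylase, 0.20 for HXK1 and 0.45 for GLK1, which both phosphorylate glucose.

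Glycogen synthase is activated by the phosphatase Glc7 with targeting subunits such as Gac1, Pig1, Pig2 and Gip2. None of these 6 genes, with GLC8, a Glc7 modulator, passed in limma. Of the 6, 1, PIG1, had an unadjusted p under 0.05, as did 20.2% of all probe sets. PIG1 had 30.5 and 40.2 on the hst3hst4 arrays against 16.0 and 23.3 on the wild-type arrays, or 0.76 on the log2 scale (SE 0.27, adjusted p = 0.185 in limma). GAC1 was at 0.82 (SE 0.54) and the others between -0.07 and 0.19. Pho85 with the cyclins Pcl8 and Pcl10 phosphorylates and inhibits glycogen synthase, Pcl6 and Pcl7 are related Pho85 cyclins, and Snf1 is needed for glycogen build-up. In all 6 genes of this group both hst3hst4 arrays lay below both wild-type arrays, which held for 27.2% of all probe sets. None passed in limma, and 3 had an unadjusted p under 0.05, as did 20.2% of all probe sets. PCL6, the lowest, had 15.9 and 19.9 on the hst3hst4 arrays against 34.8 and 36.7 on the wild-type arrays (log2 fold change -0.89, SE 0.24, adjusted p = 0.108). The others ran from -0.55 for PCL7 to -0.29 for PHO85. After scaling on the hybridisation controls, PHO85, PCL8 and PCL10 were above 0.

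Neutral trehalase is activated by the 14-3-3 proteins Bmh1 and Bmh2. BMH1 was at -0.13 (SE 0.13) and BMH2 at 0.23 (SE 0.14). DCS1 and DCS2 encode a pair of related proteins linked to trehalase regulation. DCS1 had 178.3 and 220.3 on the hst3hst4 arrays against 145.5 and 90.9 on the wild-type arrays, or 0.77 on the log2 scale (SE 0.24, adjusted p = 0.147 in limma). DCS2 had 75.9 and 91.5 on the hst3hst4 arrays against 87.4 and 25.1 on the wild-type arrays, and its log2 fold change, also 0.77, had an SE of 0.47. MAL11, a transporter of trehalose and other alpha-glucosides, was at -0.13 (SE 0.26). None of the 5 passed in limma, and 1, DCS1, had an unadjusted p under 0.05, as did 20.2% of all probe sets.

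**Figure D5:**
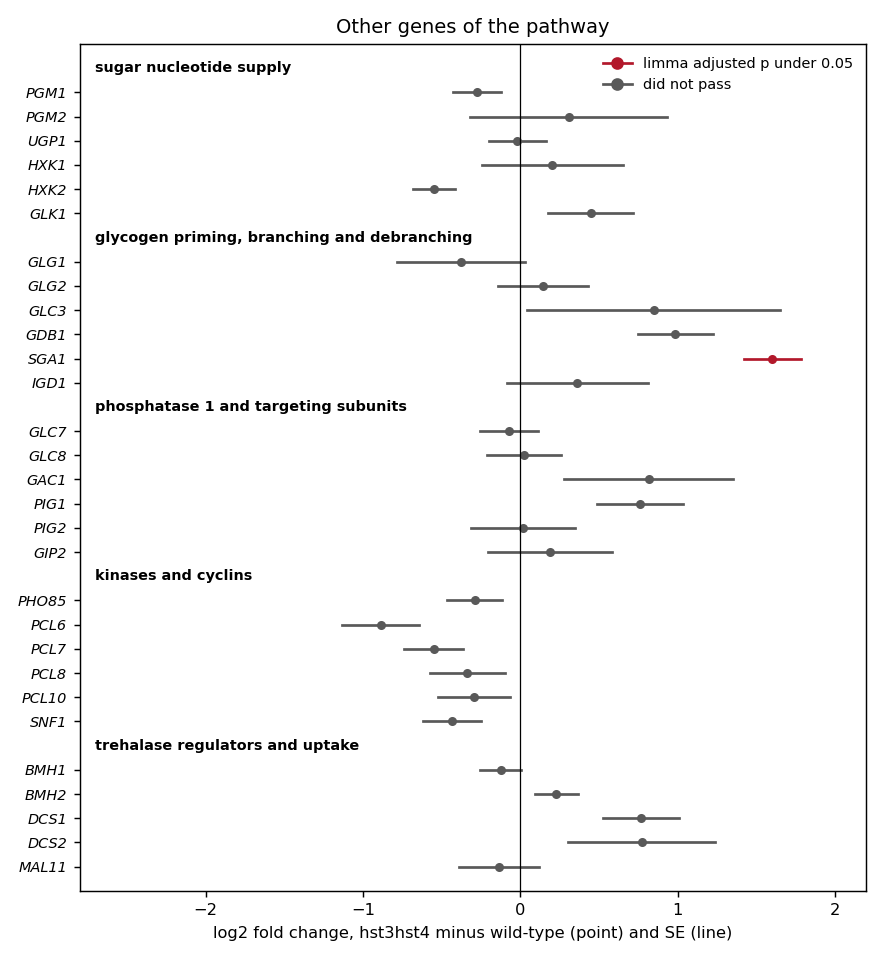
Log2 fold change (points) and SE (lines) of the 29 other pathway genes by function, arrays labelled hst3hst4 minus arrays labelled wild-type. SGA1 at 1.60 passed the test, and the 6 kinase and cyclin genes lie between -0.89 and -0.29, of which PHO85, PCL8 and PCL10 were above 0 after scaling on hybridisation controls.

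The wild-type gap extended to these genes as well. In 7 of the 29 the wild-type difference was beyond the 95th percentile of all probe sets, and in 1, GAC1, the hst3hst4 difference was. All 7, which are GLC3, PGM2, GAC1, DCS2, IGD1, HXK1 and GLG1, were higher in wild-type replicate 1 than in wild-type replicate 2, as were TPS2, TSL1, GSY1, GSY2 and GPH1. This direction held for 45.9% of all probe sets tested, whatever the size of their difference. Its share among probe sets beyond the 95th percentile was not computed, so 45.9% is not a like comparison for these genes. Without wild-type replicate 1, 10 of the 29 were called higher, where 7.84% of all probe sets were. Without wild-type replicate 2, SGA1 was called higher and PGM2 and GLG1 lower, where 3.42% of all probe sets were called higher and 1.15% lower.

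Genes outside the lists were ranked by the root mean square difference of their centred log2 values over the 4 arrays, among 5222 genes. Nearest to NTH1 were GRX1, a glutaredoxin, ULI1 and NAF1, a factor of small nucleolar RNP assembly, at 0.044 to 0.056. GRX1 had 882.1 and 1007.4 on the hst3hst4 arrays against 526.4 and 374.0 on the wild-type arrays. Nearest to GPH1 were XBP1, a stress-induced repressor, CYC7, the minor cytochrome c, and MSC1, at 0.057 to 0.096. MSC1 had 259.6 and 354.6 on the hst3hst4 arrays against 269.8 and 84.1 on the wild-type arrays. Nearest to GSY2 were SLD7, MTH1, a regulator of glucose sensing, and YNCD0014C, at 0.076 to 0.12, and nearest to TPS1 were RTT103, MDR1 and VPS24, at 0.015 to 0.027. With 4 arrays these likenesses are a description only.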

How the data were processed

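RNA was extracted with hot acid phenol, amplified once from an oligo-dT primer and labelled with biotin, per the labels' protocols. Each deposited value is a linear signal intensity of 1 probe set. The submitters' processing notes name GCOS 1.4 and MAS5. The trimmed mean (2% off each end) was equal on the 4 arrays, at 150.2, so changes are relative to an average probe set. No detection calls were used here.

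Of 9335 probe sets, 60 controls were left out. Of the 9275 others, 6504 had 1 gene, 328 several and 2443 none listed. Names were updated by gene identifier to RefSeq's R64 table, which held all 6504. A gene with several probe sets is represented by its brightest on the log2 scale, averaged over arrays. Signals were transformed as log2(signal + 3.3), 3.3 being the 10th percentile of all signals, and the lowest 20% by mean were left out (1855, below a signal of about 8.97), leaving 7420. A linear model in limma 3.58.1 under R 4.3.3 compared the strains (lmFit, then eBayes with trend). Tests were two-sided, and p-values were adjusted over all 7420 by Benjamini-Hochberg, with a threshold of 0.05 (2 residual and 5.75 prior degrees of freedom). Intervals are 95% intervals of that fit. The number of arrays limits the precision. The fit was tested on simulated data, with 100 probe sets changed at each fold. It recovered 55% of the 2-fold and 98% of the 4-fold changes, and called 3 unchanged probe sets. A gene that did not pass can therefore have changed by 2-fold. The rates need not hold for genes with a large SE, such as GPH1 (0.51) and GSY1 (0.62), against a median of 0.22 over all probe sets tested. The 95% intervals of GPH1, GSY1 and GLC3 reach beyond 4-fold, to 2.24, -2.04 and 2.71 on the log2 scale.

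The members and lists were chosen with earlier results of these data known. All members and all listed pathway genes are named, with the 3 nearest genes outside the lists for TPS1, NTH1, GSY2 and GPH1. Sequence comparisons that had been planned were not made. Alternatives were quantile normalization, median centring, pseudocounts of 1 and 12.9 (the 25th percentile), no filter, a 40% filter, no trend, 1 probe set per gene, a block on replicate number, leaving out each array and a 1.5-fold threshold. Scaling on 9 hybridisation controls was chosen after seeing the data. Figures were drawn with matplotlib 3.10.9.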

Additional observations from a re-analysis of the deposited data

How the results depend on the processing

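The count of genes called higher among the 10, 1 in the report, was 0 with no filter and without a trend, 5 after the scaling on hybridisation controls, and 0 to 5 with each array left out; the count called lower, 0 in the report, ran from 0 to 3 with each array left out. At 1.5-fold in place of 2-fold, 1 gene differed in all 4 array pairs. For the 29 other pathway genes the count called higher was 2 with the replicate number as a block and 11 after the scaling on hybridisation controls, and ran from 0 to 10 with each array left out, while the count called lower ran from 0 to 2. The share of all probe sets called, in either direction, was 2.64% in the report, 0.388% with no filter and 0.512% without a trend. It was 4.62% with the replicate number as a block, and it also moved with each array left out. The swings in these counts are therefore not by themselves a result about these genes. The scaling on hybridisation controls shifted the median log2 change over everything tested to 0.34, and 16% of all probe sets were called in either direction. Its prior degrees of freedom were infinite, so each gene's own spread had no weight in that fit. It turned TPS3 to 0.20, GSY2 to 0.34, PGM1 to 0.084, UGP1 to 0.34, GLC7 to 0.29, PHO85 to 0.068, PCL8 to 0.023, PCL10 to 0.066, BMH1 to 0.23 and MAL11 to 0.23. Quantile normalization turned TPS1 to -0.023, GLC8 to -0.0030 and PIG2 to -0.010, and median centring turned them to -0.016, -0.019 and -0.021. With each array left out in turn, the following log2 fold changes lay on both sides of 0: TPS1 from -0.17 to 0.23, TPS2 from -0.82 to 1.51, TSL1 from -0.47 to 0.98, GSY1 from -1.78 to 0.58, GSY2 from -0.95 to 0.91. For pathway genes these were PGM2 from -0.87 to 1.49, UGP1 from -0.26 to 0.22, HXK1 from -0.56 to 0.97, GLG1 from -1.04 to 0.29, GLG2 from -0.18 to 0.47, GLC3 from -0.69 to 2.38, IGD1 from -0.44 to 1.17, GLC7 from -0.25 to 0.11, GLC8 from -0.27 to 0.32, GAC1 from -0.027 to 1.66, PIG2 from -0.43 to 0.47, GIP2 from -0.25 to 0.63, DCS2 from -0.066 to 1.61 and MAL11 from -0.35 to 0.081. The TSL1 minus TPS3 difference ran from -0.33 to 1.16. NTH1 was above 0 under all 14 alternatives, from 0.93 to 1.48, and passed under 10 of them. Replicate numbers are shared between the strains. Across probe sets, the replicate 1 minus 2 difference in hst3hst4 had an r of -0.041 with that in wild-type. Whether same-numbered cultures shared a day or handling was not tested. With the replicate block, NTH1 kept its call, GDB1 gained one, and the calls over all probe sets were 343 in place of 196; no other call among the 10 genes changed. The cause of these shifts was not tested. No detection calls were used, so what lies above background on each array was not settled.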
